A study of Mus musculus with 11 samples.

Results

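The genes described here encode the enzymes and regulators that release fatty acids from circulating triglyceride, keep them in lipid droplets, mobilise them again and switch a cell between glucose and fat as fuel. They are Lpl, Gpihbp1, Angptl4, Plin2, Pnpla2, Lipe, Pdk4, Ucp2 and Creb3l3, and they are 9 of the 43346 genes in the count table. They were chosen by name, with earlier results of these data known. All 9 were among the 19863 genes that passed the filter on low counts. Expression was measured by RNA-seq of colon from 11 male Swiss Webster mice of 8 to 10 weeks. The 5 germ-free mice carried no microbes. The 6 humanized mice had been raised germ-free and received 300 µL of a stool suspension from 1 human donor by gavage at 4 to 5 weeks of age, so that the group represents 1 donor community in 1 outbred stock. All mice were singly housed and ate an autoclaved diet freely. No fast before sampling is given in the sources used here, and no sequencing batch is named. Between 39125290 and 64148538 reads were counted per mouse.

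Lipoprotein lipase, made by Lpl, splits triglyceride carried by lipoproteins at the surface of capillaries. Gpihbp1 encodes the endothelial protein that carries the enzyme across the capillary wall and anchors it there, and Angptl4, also called fasting-induced adipose factor, encodes a secreted inhibitor of the enzyme. Inside the cell, fatty acids are stored in droplets coated by perilipins such as Plin2, and are released by adipose triglyceride lipase (Pnpla2) and hormone-sensitive lipase (Lipe). Fatty acids activate nuclear receptors of the PPAR family, which drive genes of fat oxidation, and Angptl4, Pdk4 and Plin2 are textbook PPAR targets. In the colon, bacterial fermentation supplies short-chain fatty acids that the epithelium burns as fuel, and Angptl4 has long been studied as a gene whose intestinal transcript responds to microbes and to fasting.

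In humanized mice Pdk4, Plin2 and Lpl were upregulated, by 2.66-fold, 1.96-fold and 1.84-fold. Gpihbp1 was downregulated to 0.411 of its germ-free level, a call at low counts that was lost under several other settings. Angptl4, Pnpla2, Lipe, Ucp2 and Creb3l3 did not pass the threshold of a false discovery rate (FDR) below 0.01 in edgeR's exact test. The 3 upregulated members of 9 stand beside 9.2% of all tested genes called higher in humanized mice, and the 1 downregulated member beside 10.1% called lower. In 2 of the 9, Plin2 and Pdk4, every humanized mouse lay above every germ-free mouse, a pattern found in 8.67% of tested genes, and the opposite pattern was found in 0 of the 9 and in 9.73% of tested genes. The median log2 fold change (LFC, humanized over germ-free) was 0.27 over the 9 genes and 0.01 over all tested genes.

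The 250 bases before the transcription start of Plin2 and Pdk4 are shown because these are the members whose groups did not overlap. Sequences are from RefSeq (GRCm38.p6, the assembly called mm10), read 5′ to 3′ on the strand of the gene, the minus strand in both. The window is chr4:86670060-86670309 for Plin2 and chr6:5496279-5496528 for Pdk4. The gene spans given with the counts end at 86670060 for Plin2 and at 5496309 for Pdk4. Both windows therefore reach into those spans, since the RefSeq starts differ from them. Capitals mark exact matches, on either strand, to the following motifs. AGGTCA is the repeat unit of nuclear receptor binding sites, and CCAAT is the CCAAT box. The E-box CACGTG always contains the hypoxia response core, spelled ACGTG. The core of the cAMP response element is TGACG, and the TATA box is TATAAA.
Plin2: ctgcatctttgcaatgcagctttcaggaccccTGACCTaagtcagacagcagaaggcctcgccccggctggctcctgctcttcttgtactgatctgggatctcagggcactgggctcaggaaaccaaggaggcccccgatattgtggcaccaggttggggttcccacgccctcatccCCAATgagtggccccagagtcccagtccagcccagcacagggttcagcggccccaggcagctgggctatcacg
Pdk4: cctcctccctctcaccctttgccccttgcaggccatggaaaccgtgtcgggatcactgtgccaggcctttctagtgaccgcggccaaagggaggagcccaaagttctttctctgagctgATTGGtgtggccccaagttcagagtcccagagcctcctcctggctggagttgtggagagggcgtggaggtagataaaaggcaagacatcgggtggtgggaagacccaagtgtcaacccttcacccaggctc
Plin2 held AGGTCA, as its reverse complement, 218 bases before the start and CCAAT 73 bases before it. Pdk4 held CCAAT, also as its reverse complement, 131 bases before the start. Of 32851 RefSeq promoter windows of this length, AGGTCA was in 14.0%, CCAAT in 33.8%, CACGTG in 6.02%, TGACG in 17.8%, ACGTG in 16.6% and TATAAA in 12.4%. Such matches describe the letters of the window and were not tested as binding sites. A promoter window was found for 6 of the 9 genes, with 8 starts among them.

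**Figure D1:**
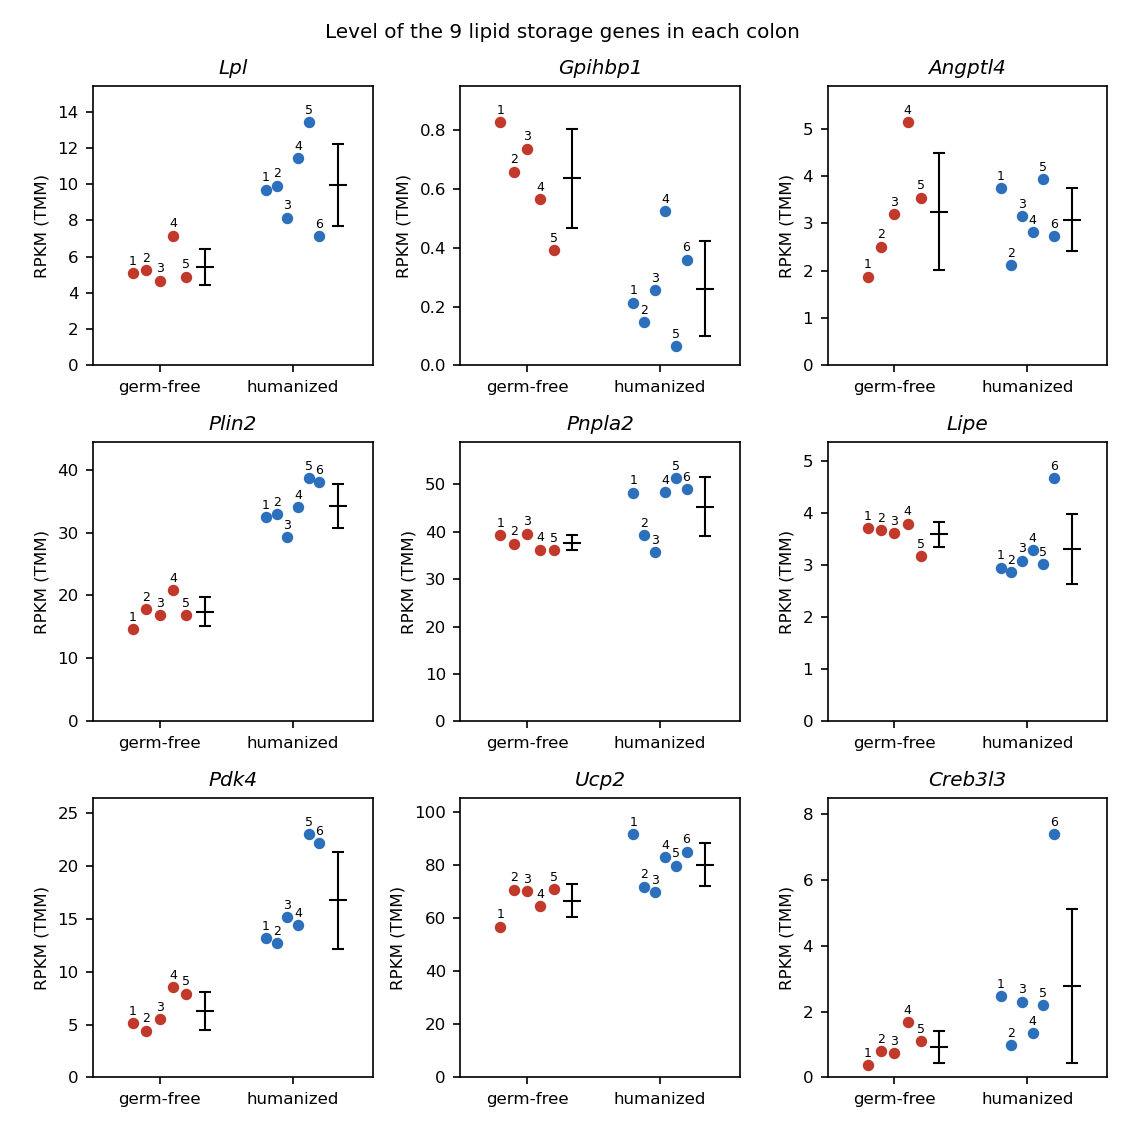
Level of each of the 9 genes in each colon, in RPKM after TMM normalization (y axis from 0). Numbered points are single mice, and the bar beside them is the mean with its SD (5 germ-free, 6 humanized mice). Humanized mice lie above all germ-free mice for Plin2 and Pdk4, while the groups overlap for Angptl4, and humanized mouse 6 stands apart for Creb3l3 and Lipe.

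Levels are given in RPKM (reads scaled to gene length and to library size, after TMM normalization), which allows genes of different length to be compared. In both groups the order of the mean levels was Ucp2, Pnpla2, Plin2, Pdk4, Lpl, Lipe, Angptl4, Creb3l3 and Gpihbp1. The mean ranged from 66.7 RPKM for Ucp2 down to 0.635 RPKM for Gpihbp1 in germ-free mice, and from 80.3 RPKM to 0.261 RPKM in humanized mice. In germ-free mice the ranges of neighbours overlapped for Pdk4 and Lpl, for Lipe and Angptl4, and for Creb3l3 and Gpihbp1. In humanized mice they overlapped for Pnpla2 and Plin2, for Pdk4 and Lpl, for Lipe and Angptl4, and for Angptl4 and Creb3l3. Plin2 thus stood clear of Pnpla2 in germ-free mice, at 17.5 RPKM against 37.7 RPKM, while in humanized mice, at 34.2 RPKM against 45.3 RPKM, their ranges met. Ranges leave aside that both genes were measured in the same mice. Within each humanized mouse Plin2 lay below Pnpla2 (ratio 0.673 to 0.836), and Pdk4 lay above Lpl.

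Markers of some other cell types differed between the groups. Sums were lower in humanized mice for blood endothelium, smooth muscle, fibroblasts and skeletal muscle (exact permutation p = 0.0108, 0.00649, 0.00433 and 0.00649, two-sided). For macrophages, epithelium, adipocytes and small intestine enterocytes the p-values were 0.0563, 0.0844, 0.258 and 0.991 (exact permutation, two-sided). Summed over 10 genes, blood endothelium markers ranged from 170 to 198 CPM (reads scaled to library size) in germ-free mice and from 22.9 to 162 CPM in humanized mice. The summed markers ranged from 817 to 2340 against 95 to 843 CPM for smooth muscle, from 1570 to 2110 against 146 to 1160 CPM for fibroblasts, and from 120 to 162 against 26.8 to 150 CPM for macrophages. Skeletal muscle markers ranged from 5.58 to 18.2 against 2.15 to 7.56 CPM. Beside the 10.1% of all tested genes called lower, the calls were 0 of 10 markers of blood endothelium, 10 of 10 of smooth muscle, 7 of 8 of fibroblasts, 2 of 8 of macrophages and 2 of the 3 tested of skeletal muscle. The summed epithelial markers, among them the defining Epcam, Krt8 and Vil1, were present in all 11 mice and ranged from 7700 to 10500 CPM in germ-free and from 8810 to 12000 CPM in humanized mice, with 2 of 11 genes called higher beside 9.2% of all tested genes. In bulk tissue, fewer cells of a type and less RNA per cell cannot be told apart. Scaling the libraries to total counts or to the epithelial markers in place of TMM shifted the median LFC of all genes to -0.18 and -0.19. LFC values below are relative to the TMM median.

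**Figure D2:**
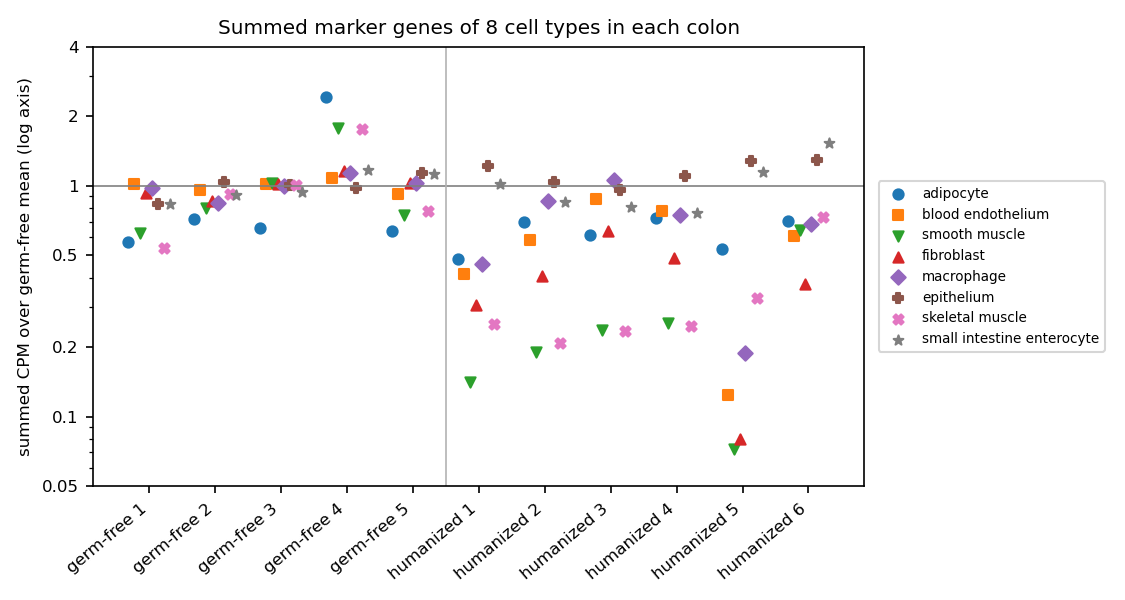
Summed marker genes of 8 cell types in each mouse, divided by the germ-free mean (log axis), with 1 symbol per cell type. Smooth muscle and fibroblast markers lie below 1 in all humanized mice and lowest in humanized mouse 5, adipocyte markers are highest in germ-free mouse 4, and epithelial markers stay near 1.

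Lpl (chr8:68880491-68907448 in mm10, plus strand) encodes the lipase itself. Germ-free mice 1 to 5 had 5.09, 5.26, 4.67, 7.15 and 4.90 RPKM, and humanized mice ranged from 7.13 to 13.4 RPKM with a median of 9.81. Germ-free mouse 4 was the highest of its group, and it lay just above humanized mouse 6, the lowest of the other. This was the single overlap between the groups. The mean was 5.42 ± 0.997 RPKM (SD, n = 5) in germ-free and 9.96 ± 2.26 RPKM (SD, n = 6) in humanized mice, with an LFC of 0.88 (SE 0.16, 95% interval 0.53 to 1.22, FDR 2.63e-06, edgeR exact test). The difference of the group means of log2 CPM gave p = 0.00649 when all 462 divisions of the 11 mice into 5 and 6 were enumerated (exact permutation, two-sided), and no p below 0.00216 is possible in this design. Lpl passed when any 1 mouse was left out and in 11 of 11 other fits. Lpl is known from macrophages, muscle and adipose tissue as well as other cells, and the medians of the summed markers were 141 CPM in germ-free and 101 CPM in humanized mice for macrophages, 1050 and 280 CPM for smooth muscle, 9.51 and 2.59 CPM for skeletal muscle, and 28.2 and 28 CPM for adipocytes. Their part in the level of Lpl was not tested.

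Gpihbp1 (chr15:75596628-75599481, plus strand) encodes the capillary anchor of the lipase. The values were 0.826, 0.658, 0.736, 0.564 and 0.392 RPKM in germ-free mice 1 to 5, and humanized mice ranged from 0.0659 to 0.523 RPKM with a median of 0.235. The groups overlapped, since germ-free mouse 5 lay below humanized mouse 4. The mean was 0.635 ± 0.167 RPKM (SD, n = 5) against 0.261 ± 0.162 RPKM (SD, n = 6), with an LFC of -1.28 (SE 0.40, 95% interval -2.14 to -0.42, FDR 0.00893, edgeR exact test, permutation p = 0.0108). Counts per mouse were 8 to 133, the lowest of the 9 genes. The call held in 4 of the 11 fits that leave out 1 mouse (FDR 4.45e-04 to 0.0398, lost without germ-free mouse 1, 2, 3 or 4 or humanized mouse 1, 2 or 3) and in 5 of 11 other fits, and was lost in the quasi-likelihood test (FDR 0.03). The 10 blood endothelium markers had LFC values from -1.28 (Emcn) to -0.61 (Vwf). Of these, 0 of 10 passed in the edgeR exact test, 8 of 10 had an unadjusted p below 0.05 (37.4% of all tested genes), and in 6 of 10 all humanized mice lay below all germ-free mice (9.73% of all tested genes). With libraries scaled to these markers, a setting chosen after the data were seen, the LFC of Gpihbp1 was -0.42 (FDR 0.385, edgeR exact test). The summed markers were themselves lower in humanized mice, so this scaling raises LFC values of genes in general. The part of endothelium in the level of Gpihbp1 was not tested.

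Angptl4 (chr17:33773750-33781575, minus strand) encodes the secreted inhibitor of the lipase. Germ-free mice 1 to 5 had 1.88, 2.51, 3.20, 5.13 and 3.54 RPKM, and humanized mice ranged from 2.12 to 3.93 RPKM with a median of 2.98. The lowest and the highest values of all 11 mice were both germ-free, and the humanized range lay inside the germ-free range. The mean was 3.25 ± 1.23 RPKM (SD, n = 5) against 3.08 ± 0.674 RPKM (SD, n = 6), with an LFC of -0.08 (SE 0.23, FDR 0.862, edgeR exact test, permutation p = 0.929). The 95% interval of the LFC, -0.58 to 0.43, spans 0.668-fold to 1.34-fold. The sign depended most on germ-free mouse 4, the mouse with the highest Angptl4, Plin2 and Pdk4 of its group and the highest adipocyte markers. Without that mouse the LFC was 0.15 (FDR 0.719, edgeR exact test), and without humanized mouse 2 it was 0.003. Its summed adipocyte markers stood at 103.5 CPM, against at most 30.7 CPM in the other germ-free mice and 20.6 to 31.1 CPM in humanized mice. The adipocyte gene Adipoq reached 5.33 CPM there, was at most 1.03 CPM in every humanized mouse, and was at 0 in at least 1 mouse of each group. Of the 10 adipocyte markers 5 passed the filter and 0 were called in the edgeR exact test. The part of adipose tissue in the level of Angptl4 was not tested.

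Plin2 (chr4:86648386-86670060, minus strand) encodes perilipin 2, the droplet coat protein of most cells other than adipocytes. Levels of 14.7, 17.9, 16.9, 20.9 and 16.9 RPKM were found in germ-free mice 1 to 5, and humanized mice ranged from 29.3 to 38.6 RPKM with a median of 33.5. The lowest humanized mouse stood well above the highest germ-free mouse, and the spread within each group was small. The mean was 17.5 ± 2.25 RPKM (SD, n = 5) against 34.2 ± 3.55 RPKM (SD, n = 6), with an LFC of 0.97 (SE 0.10, 95% interval 0.77 to 1.18, FDR 7.37e-18, edgeR exact test). Plin2 ranked 71 of 19863 by FDR, and its permutation p of 0.00216 is the smallest this design can give. It passed when any 1 mouse was left out and in 11 of 11 other fits.

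The lipases that empty the droplet showed smaller differences. Pnpla2 (chr7:141455198-141460743, plus strand), which starts triglyceride breakdown, had 39.3, 37.5, 39.6, 36.2 and 36.0 RPKM in germ-free mice 1 to 5 and 35.7 to 51.2 RPKM, with a median of 48.3, in humanized mice. Of the humanized mice, 4 lay above the germ-free range, humanized mouse 2 lay inside it and humanized mouse 3 just below it. The mean was 37.7 ± 1.67 RPKM (SD, n = 5) against 45.3 ± 6.24 RPKM (SD, n = 6), with an LFC of 0.26 (SE 0.09, 95% interval 0.07 to 0.46, FDR 0.0344, edgeR exact test, permutation p = 0.0455). Leaving out humanized mouse 3 gave an LFC of 0.32 that passed (FDR 0.00109, edgeR exact test), and scaling to epithelial markers gave 0.04. Lipe (chr7:25379527-25398710, minus strand), which acts on the diglyceride that Pnpla2 releases, had 3.71, 3.68, 3.62, 3.80 and 3.18 RPKM in germ-free mice 1 to 5 and 2.87 to 4.67 RPKM, with a median of 3.06, in humanized mice. Humanized mouse 6 was the highest of all 11, while the other humanized mice lay at or below the lower part of the germ-free range. The mean was 3.60 ± 0.243 RPKM (SD, n = 5) against 3.32 ± 0.679 RPKM (SD, n = 6), with an LFC of -0.12 (SE 0.12, 95% interval -0.38 to 0.15, FDR 0.595, edgeR exact test, permutation p = 0.312). Without humanized mouse 6 Lipe still did not pass (LFC -0.25, FDR 0.0731, edgeR exact test), with an exact permutation p of 0.0159. Of the exonic bases of Lipe, 918 (15.6%) are shared with the antisense gene 4732471J01Rik in the GENCODE M21 annotation. The strand setting of the counting is not given in the sources used here, so reads of these genes may not have been told apart.

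Pdk4 (chr6:5483351-5496309, minus strand) encodes a kinase that switches off pyruvate dehydrogenase and so spares glucose while fat is burned. Germ-free mice 1 to 5 had 5.12, 4.42, 5.53, 8.53 and 7.93 RPKM, and humanized mice ranged from 12.7 to 23.0 RPKM with a median of 14.8. The groups did not overlap, and humanized mice 5 and 6 stood above the other 4. The mean was 6.31 ± 1.81 RPKM (SD, n = 5) against 16.8 ± 4.59 RPKM (SD, n = 6), with an LFC of 1.41 (SE 0.21, 95% interval 0.95 to 1.88, FDR 6.05e-09, edgeR exact test, permutation p = 0.00216, the smallest possible). Like Plin2 and Lpl, Pdk4 passed when any 1 mouse was left out and in 11 of 11 other fits, the removal of germ-free mouse 4 together with humanized mouse 5 or 6 included.

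Ucp2 (chr7:100493337-100502020, plus strand), a mitochondrial carrier protein related to the uncoupling protein of brown fat, was the most abundant of the 9 genes. It stood at 56.8, 70.9, 70.4, 64.5 and 71.0 RPKM in germ-free mice 1 to 5, and humanized mice ranged from 69.9 to 91.7 RPKM with a median of 81.4. Humanized mouse 3 lay inside the germ-free range and the other 5 above it. The mean was 66.7 ± 6.16 RPKM (SD, n = 5) against 80.3 ± 8.22 RPKM (SD, n = 6), with an LFC of 0.27 (SE 0.09, 95% interval 0.08 to 0.46, FDR 0.023, edgeR exact test, permutation p = 0.0216). The LFC was 0.30 and passed without humanized mouse 3 (FDR 0.00667, edgeR exact test), and was 0.07 with epithelial scaling. Of the exonic bases of Ucp2, 305 (4.36%) lie opposite exons of Dnajb13.

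Creb3l3 (chr10:81084324-81098874, minus strand) encodes a membrane-bound transcription factor of liver and intestine that is released under fasting and drives genes of triglyceride handling. Germ-free mice 1 to 5 had 0.373, 0.792, 0.743, 1.67 and 1.10 RPKM, and humanized mice ranged from 0.973 to 7.39 RPKM with a median of 2.25. The highest value, in humanized mouse 6, was far above the next, 2.47 RPKM, and humanized mice 2 and 4 lay inside the germ-free range. The mean was 0.935 ± 0.486 RPKM (SD, n = 5) against 2.78 ± 2.34 RPKM (SD, n = 6). The LFC of 1.57 (SE 0.51, 95% interval 0.47 to 2.67) was the largest of the 9, but the gene did not pass (FDR 0.0115, edgeR exact test, permutation p = 0.026). Without humanized mouse 6 the LFC was 0.98, and the gene passed when germ-free mouse 4 (FDR 0.0052) or humanized mouse 2 (FDR 0.00326), 4 (FDR 0.00661) or 5 (FDR 0.00964) was left out of the edgeR exact test. Mttp, which loads lipid onto lipoproteins in enterocytes, stood at 23 CPM in humanized mouse 6, above the range of 2.76 to 4.2 CPM in germ-free mice. Of the other small intestine enterocyte markers, Apoa4, Fabp2 and Alpi in that mouse also lay above their germ-free ranges. Apob (258 CPM), Rbp2 (9.88 CPM) and Lct (0.12 CPM) lay inside theirs. The summed small intestine enterocyte markers, of which 7 of 8 were in the table, were 649 to 1300 CPM in humanized and 716 to 1000 CPM in germ-free mice, and were highest in humanized mouse 6. Their part in the level of Creb3l3 was not tested.

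**Figure D3:**
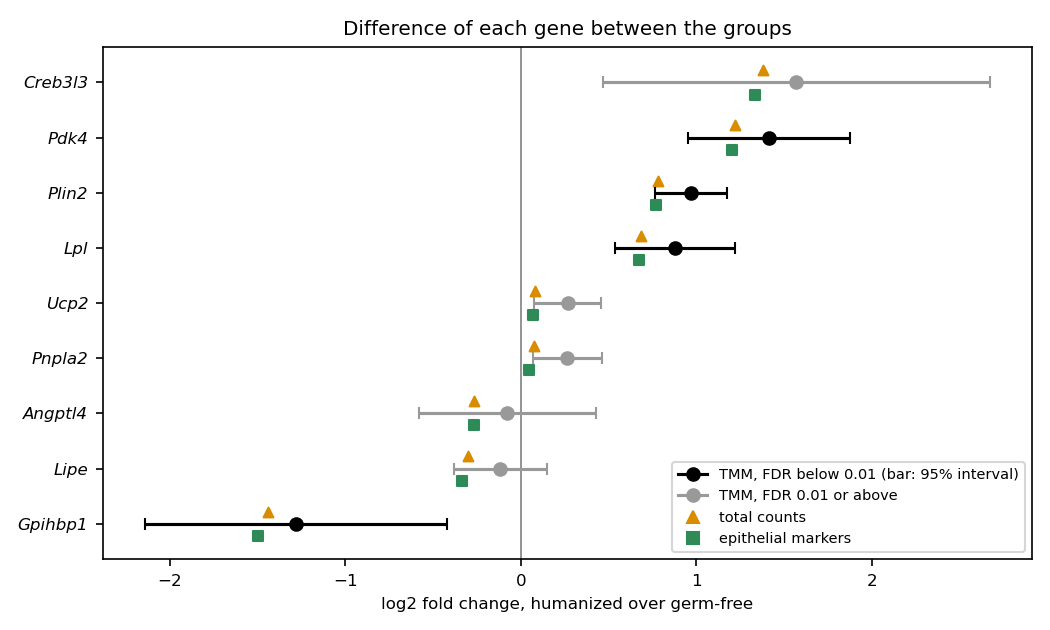
LFC of the 9 genes, humanized over germ-free, with the 95% interval as a bar (circles, TMM, black, FDR below 0.01). Triangles and squares give the LFC after scaling to total counts and to epithelial markers, which lie lower for every gene by about the shift of the median, and leave Pdk4, Plin2 and Lpl above 0 and Gpihbp1 below it.

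Ratios between genes within the same mouse do not depend on how libraries are scaled. The 5 ratios described were chosen after the values had been seen, and their exact permutation p-values (two-sided, on the log2 ratios of 5 and 6 mice) were adjusted over the 5. Angptl4 relative to Lpl, the inhibitor over its enzyme, was 0.594 ± 0.162 in germ-free and 0.318 ± 0.0774 in humanized mice (exact permutation p = 0.00866, adjusted 0.0108). The groups overlapped, because germ-free mouse 1 at 0.369 lay below 3 humanized mice. Gpihbp1 relative to Lpl was 0.121 ± 0.0404 against 0.0282 ± 0.0177 without overlap (exact permutation p = 0.00433, adjusted 0.00722).

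Pdk4 relative to Angptl4, both named above as PPAR targets, was 2.02 ± 0.455 in germ-free and 5.58 ± 1.53 in humanized mice, and the lowest humanized ratio (3.52) exceeded the highest germ-free ratio (2.73, exact permutation p = 0.00216, adjusted 0.00541). Plin2 relative to Pnpla2, the droplet coat over the lipase, was 0.465 ± 0.075 against 0.761 ± 0.0639, again without overlap (exact permutation p = 0.00216, adjusted 0.00541). Lipe relative to Pnpla2 was 0.0955 ± 0.00649 against 0.0739 ± 0.0144 (exact permutation p = 0.0238, adjusted 0.0238), with overlap.

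**Figure D4:**
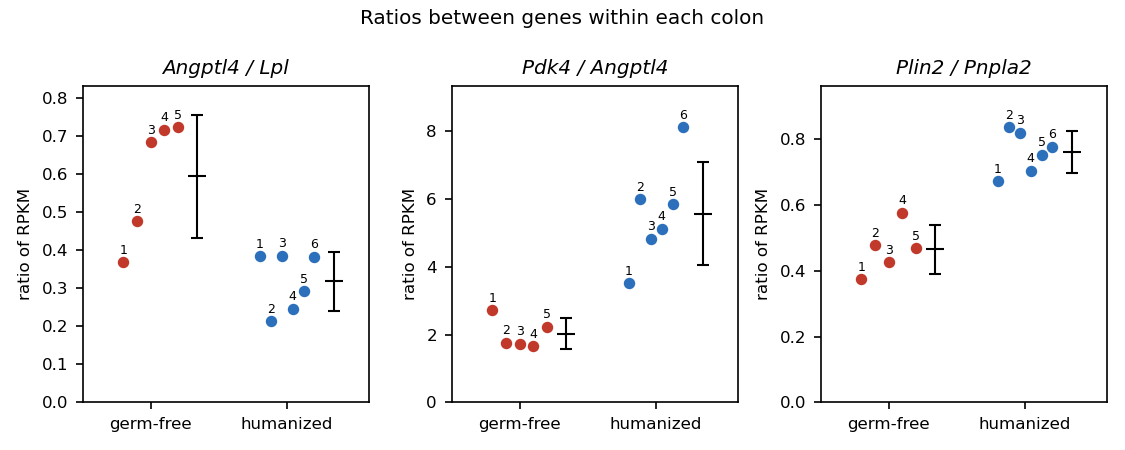
Ratio of RPKM between 2 genes in each mouse (y axes from 0), with mean and SD beside the numbered points. The ratio of Angptl4 to Lpl is lower in humanized mice with some overlap, and those of Pdk4 to Angptl4 and Plin2 to Pnpla2 are higher without overlap.

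The other genes of these pathways were described by 7 lists, each set beside the background of 9.2% higher and 10.1% lower. Among the other genes of the lipoprotein lipase axis (partners, cofactors, proteases and receptors), 16 of 17 were tested, 0 were higher and 2 were lower, with a median LFC of -0.01. Pcsk6, a protease that cleaves the lipase and its inhibitors, fell to 4.00 ± 1.81 from 11.5 ± 0.970 RPKM (LFC -1.53, FDR 1.54e-05, edgeR exact test). Apoc3, an apolipoprotein that slows the clearance of triglyceride, fell to 0.192 ± 0.230 from 1.98 ± 1.19 RPKM (LFC -3.33, FDR 2.33e-04, edgeR exact test). For the 0 higher genes, DESeq2 called 1, and 6 of the 16 had an unadjusted p below 0.05 in either direction, against 37.4% of all tested genes. Cd36, the fatty acid uptake receptor that endothelium also carries, did not pass at an LFC of -1.08 (FDR 0.0165, edgeR exact test), although its groups did not overlap. Angptl8, a relative of Angptl4, had an LFC of -0.25 and did not pass.

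Among the other genes of lipid droplets and lipolysis, 26 of 28 were tested, 6 were higher and 4 lower, with a median LFC of 0.16. The balance depended on the scaling, since total counts gave 4 higher and 6 lower and epithelial markers 4 higher and 5 lower. Mgll, the lipase that completes the breakdown of triglyceride after Pnpla2 and Lipe, rose from 14.2 ± 1.83 to 32.6 ± 3.0 RPKM (LFC 1.20, SE 0.09, FDR 7.12e-30, edgeR exact test). Lpin2, which makes diglyceride for storage, and Lipa, the lysosomal acid lipase, rose with LFC values of 0.75 and 0.54 (FDR 9.64e-10 and 2.29e-07, edgeR exact test). Dgat2, Acsl3 and Hsd17b11 were the other higher genes.

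G0s2, an inhibitor of the Pnpla2 lipase, fell from 2.12 ± 0.783 to 0.664 ± 0.411 RPKM (LFC -1.67, SE 0.40, FDR 5.04e-04, edgeR exact test), and its groups did not overlap. Cidea, a droplet fusion protein, fell with an LFC of -1.58 (FDR 5.37e-04), and Acsl1, which activates fatty acids, with an LFC of -0.42 (FDR 8.94e-04, edgeR exact test). Plin4 was the remaining lower gene. Cidea and Plin4 are known best from adipocytes, and the quasi-likelihood test called 2 lower genes in place of 4. The other perilipins Plin3 (LFC 0.10) and Plin5 (LFC 0.35) did not pass, and Abhd5, the activator of the Pnpla2 lipase, did not pass at an LFC of 0.19.

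Among PPAR receptors and their shared targets, 27 of 29 were tested, 17 were higher and 0 lower, with a median LFC of 0.65. In the edgeR exact test 19 of the 27 had an unadjusted p below 0.05, against 37.4% of all tested genes, and DESeq2 called 0 lower. Vnn1, a pantetheinase, rose from 0.682 ± 0.245 to 9.51 ± 2.55 RPKM (LFC 3.80, FDR 1.35e-38, edgeR exact test). Hadhb and Hadha, the subunits of the mitochondrial trifunctional protein of fatty acid oxidation, rose with LFC values of 1.09 and 1.02 (FDR 3.47e-30 and 1.66e-22, edgeR exact test). Of the receptors, Pparg rose from 35.1 ± 2.87 to 58.8 ± 7.26 RPKM (LFC 0.75, FDR 3.26e-12, edgeR exact test), while Ppara (LFC -0.03) and Ppard (LFC 0.07) did not pass. Angptl4, a target held among the 9 genes and not counted in this list, stood at an LFC of -0.08. The list was chosen with earlier results of these data known, so its 17 of 27 is not an independent yardstick for Angptl4.

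Around Pdk4 and Ucp2, 14 of 15 genes of pyruvate dehydrogenase control and uncoupling were tested, 5 were higher and 0 lower, with a median LFC of 0.15. Dld, Pdhb and Dlat, which encode subunits of the complex that Pdk4 inhibits, rose with LFC values of 0.51, 0.40 and 0.42 (FDR 1.85e-06, 2.57e-06 and 1.37e-05, edgeR exact test). Pdk3 and Mpc2 were the other higher genes, and the kinases Pdk1 (LFC 0.09) and Pdk2 (LFC 0.06) did not pass. These 5 calls depended on the scaling, since scaling to total counts gave 1 and scaling to epithelial markers 0. Among relatives and targets of Creb3l3, 10 of 12 were tested and 0 were called in the edgeR exact test, with a median LFC of 0.04. DESeq2 called 1 higher, and 3 of the 10 had an unadjusted p below 0.05, against 37.4% of all tested genes. Among the apolipoprotein genes of the list, Apoa4 (LFC 1.02, FDR 0.56), Apoc2 (LFC 0.84, FDR 0.0145) and Apoa1 (LFC -2.27, FDR 0.104, edgeR exact test) did not pass.

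**Figure D5:**
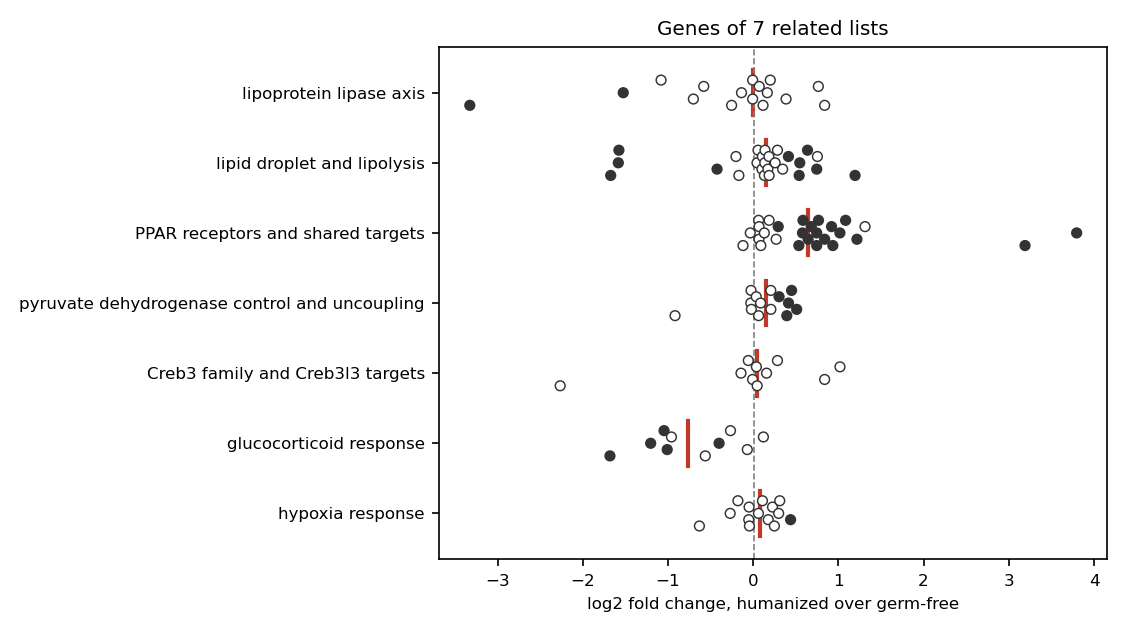
LFC of each tested gene in 7 lists (x axis, humanized over germ-free, filled, FDR below 0.01), with the median of each list in red and the median of all genes as a dashed line. The list of PPAR receptors and targets has 17 filled points, all above 0, and the glucocorticoid list has 5, all below 0.

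The genes whose pattern over the 11 mice was nearest to each member were found by the mean absolute difference of log2 CPM, each gene centred on its own mean, among genes with a mean of at least 1 CPM. Nearest to Angptl4 were Gm26529 (0.18), Bloc1s4 (0.183), RP24-287C19.1 (0.19), D630002J18Rik (0.19) and Gm16175 (0.193), and between 0 and 4 of these 5 stayed among the nearest 5 when 1 mouse was left out. Plin2 had closer neighbours, led by Acadl (0.067), a dehydrogenase of fatty acid oxidation, then Gm13910 (0.07) and Hsdl2 (0.072). Lpl was nearest to Slc6a14, Slc40a1 and AW112010 (0.141 to 0.15), and Pdk4 to Ces2e, Tmem236 and Igf2bp1 (0.193 to 0.222). Gpihbp1 was nearest to Hhipl1, Itga11 and Snhg11 (0.298 to 0.31), and Creb3l3 to Cpn1, Ggt1 and 2010003K11Rik (0.319 to 0.417). Polr1c, Clta and Ihh were nearest to Pnpla2 (0.044 to 0.05), Pagr1b, Prkcsh and Atp5g1 to Ucp2 (0.042 to 0.047) and Zscan12, Zfp597 and Chrnb2 to Lipe (0.08 to 0.089). When 1 mouse was left out, 2 to 3 of the 3 nearest genes were kept for Plin2 and Creb3l3, 1 to 3 for Lpl and Pnpla2, 1 to 2 for Pdk4, and 0 to 3 for Gpihbp1, Lipe and Ucp2. Among the 9 genes themselves the closest pairs were Pnpla2 with Ucp2 (0.1) and Lpl with Plin2 (0.162), while Angptl4 lay 0.469 from Lpl, 0.495 from Plin2 and 0.715 from Pdk4.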

How the data were processed

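Colon RNA of 5 germ-free and 6 humanized mice was sequenced by the authors as paired 101 bp reads. According to the submitters' processing notes and the methods, reads were aligned to mm10 with TopHat2 2.1.0 and Bowtie2 2.2.3 and counted per gene with featureCounts (Subread 1.4.6-p5). The deposited values are raw counts per gene, without normalization, beside the gene length of the authors.

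The comparison followed the study's methods and ran in edgeR 4.0.16 (R 4.3.3), with filterByExpr (minimum count 10, minimum total 15), TMM normalization, the exact test and Benjamini-Hochberg correction over 19863 genes at FDR below 0.01. SE and 95% intervals of LFC came from the quasi-likelihood fit. DESeq2 1.42.0, the quasi-likelihood test, other scalings and filters, single mice left out and a replicate block were alternatives. RPKM used the deposited length, which treats reads from all isoforms alike. A prior count of 2 was added for the log2 CPM values of the permutation tests. The programs were tested on simulated data.

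The 9 genes, the lists and the markers were chosen with earlier results of these data known. Named in each list were the 3 genes with the lowest FDR per direction, and others named were chosen after their values were seen. In all, 4 symbols were matched by identifier (Angptl8 is Gm6484 in the table). Replicate mice were separate animals, and no library was found to be deposited in duplicate (chi-square per gene at least 21.2 between mice of a group). Same-numbered mice of the groups did not deviate together, so numbers were not treated as pairs.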

Additional observations from a re-analysis of the deposited data

Results flagged for a closer look

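Of 44 sets of 5 or 6 mice examined (the 9 genes, the 8 marker sums and the 5 ratios in each group), 6 held a mouse far from the rest by Dixon's test, which chance gives in about 1 of 20 sets. Creb3l3 in humanized mouse 6 was 7.391 RPKM, against 2.465 RPKM in the next humanized mouse. Lipe in the same mouse was 4.673 RPKM, against 3.288 RPKM in the next. The summed smooth muscle markers of humanized mouse 6 were 842.7 CPM, against 333.8 CPM in the next, and its summed skeletal muscle markers 7.563 CPM, against 3.368 CPM. Lpl in germ-free mouse 4 was 7.154 RPKM, against 5.261 RPKM in the next germ-free mouse, and the summed adipocyte markers of that mouse were 103.5 CPM, against 30.72 CPM. Whether the marker levels of these mice bear on their Creb3l3, Lipe and Lpl was not tested.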

How the results depend on the processing

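Lpl, Plin2 and Pdk4 kept their direction and stayed past the threshold in each of the 11 fits without 1 mouse and in each of the 11 other fits. The number of members called higher was 3, became 6 at FDR below 0.05 and 1 where an absolute LFC above 1 was also asked, and ranged from 3 to 5 without single mice (5 without humanized mouse 3). The 1 lower call, Gpihbp1, became 0 with the quasi-likelihood test, with no filter on low counts, with at least 10 counts asked in every mouse (which removes the gene) and without germ-free mouse 4 together with humanized mouse 5 or 6, and ranged from 0 to 1 without single mice. The LFC of Angptl4, which never passed, changed sign without germ-free mouse 4 (0.148) or humanized mouse 2 (0.003), and without germ-free mouse 4 together with humanized mouse 5 (0.065) or 6 (0.18). It ranged from -0.223 to 0.148 without single mice, and the difference of mean log2 CPM behind its permutation test from -0.203 to 0.158. A replicate block, fitted with the quasi-likelihood test on mice 1 to 5 of both groups, gave 3 higher and 0 lower members, the counts that this test also gave without the block on all 11 mice. Same-numbered mice deviated with correlations from -0.133 to 0.091, so this block joins mice that share only a number. In the lists, the block gave 0 lower lipase axis genes, 3 higher and 2 lower droplet genes, 2 higher pyruvate dehydrogenase genes and 3 lower glucocorticoid genes, where the quasi-likelihood test on all mice without it gave 2, 4, 2, 4 and 4. Without germ-free mouse 4 and humanized mouse 6 there were 2 lower droplet genes and 3 higher pyruvate dehydrogenase genes. These joint removals, and the scaling of Gpihbp1 to endothelial markers, were chosen after seeing the data. The 17 higher PPAR genes ranged from 16 to 17 without single mice. With an absolute LFC above 1 also asked, there were 5 higher PPAR genes, 1 higher droplet gene and 0 higher pyruvate dehydrogenase and hypoxia genes. Low counts limit Gpihbp1, and the spread between mice limits Gpihbp1, Angptl4 and Creb3l3.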

Other observations

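Angptl4 and Pdk4 are also known to respond to glucocorticoids and to low oxygen, so genes of those responses were described in the same way. Of 10 genes of the glucocorticoid response, 0 were higher and 5 lower in humanized mice, beside 9.2% and 10.1% of all tested genes. Their median LFC was -0.76. Sgk1, a kinase that controls sodium uptake in the colon, fell from 66.3 ± 11.6 to 28.8 ± 3.01 RPKM (LFC -1.20, SE 0.12, FDR 5.47e-20, edgeR exact test). Per1, a clock gene, and Tsc22d3, which encodes the glucocorticoid-induced leucine zipper, fell with LFC values of -1.05 and -1.01 (FDR 1.79e-15 and 5.13e-09, edgeR exact test). In these 3 genes, those with the lowest FDR, all humanized mice lay below all germ-free mice. No other gene of the 10 had this pattern, which 9.73% of all tested genes had. Fkbp5 and Zbtb16 were the other lower genes. The receptor gene Nr3c1 did not pass, at 27.8 ± 1.82 RPKM in germ-free and 30.2 ± 4.07 RPKM in humanized mice (LFC 0.12, FDR 0.407, edgeR exact test).

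Of 14 genes of the hypoxia response, 1 was higher and 0 lower, beside 9.2% and 10.1% of all tested genes. Their median LFC was 0.09. The higher gene was Ero1l, an oxidase of protein folding (LFC 0.44, FDR 1.16e-05, edgeR exact test), and with total counts or epithelial markers as the scale it no longer passed. Under total counts 2 genes of the list were called lower. Car9 and Vegfa, classical targets of hypoxia-inducible factor, had LFC values of 0.11 and 0.18 and did not pass. Among the 14, 2 had an unadjusted p below 0.05 in the edgeR exact test, against 37.4% of all tested genes.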
